A study of Mus musculus with 3 samples.

Results

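Galectins are the mouse lectins encoded by the Lgals genes, and 8 of them (Lgals1, Lgals2, Lgals3, Lgals4, Lgals7, Lgals8, Lgals9 and Lgals12) were read here in 3 melanoma lines, out of 25791 gene symbols in the authors' expression table. They were chosen by symbol, with their expression values in these lines in view, so every level and difference of a galectin below is a description and carries no test. The series concerns PD-1 blockade in a mouse model of transplanted melanoma, and its lines are YUMM1.1, YUMM2.1 and YUMM1.7. Each was sequenced as 1 library of total RNA, and the labels give no treatment, genotype, passage or tumor response. By their published derivation, YUMM lines (Yale University Mouse Melanoma) come from melanomas of mice in which a melanocyte-restricted, drug-inducible Cre switched on mutant Braf, together with other engineered alleles. YUMM1.1 and YUMM1.7 also lack Cdkn2a, and YUMM2.1 keeps a copy of Cdkn2a and carries a stabilized beta-catenin. Each line descends from a tumor of its own, so line and genotype cannot be told apart from the history of that culture. Values are FPKM, fragment numbers corrected for transcript length and sequencing depth. With 1 library per line no spread between cultures can be given, and neighboring levels in any order below cannot be separated beyond counting error.

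Galectins bind beta-galactosides, above all the repeated galactose and N-acetylglucosamine units on branched N-glycans and core O-glycans. They are made without a signal peptide, act in cytosol and nucleus, and leave the cell by a route other than the secretory pathway. Outside the cell they link glycoproteins into lattices that hold receptors at the surface, and galectins shed by tumors are known to restrain or kill T cells. The family has prototype members with a lone carbohydrate recognition domain (Lgals1, Lgals2 and Lgals7), a chimera member with a long flexible tail before that domain (Lgals3), and tandem-repeat members with a domain at each end (Lgals4, Lgals8, Lgals9 and Lgals12).

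The reference coding sequences followed this division. The prototype proteins had 130 to 136 residues, galectin-3 had 264, and the tandem-repeat proteins had 314 to 353. The signature histidine, any residue, asparagine, proline and arginine, which lines the sugar-binding groove, occurred 1 time in each prototype member and in galectin-3 and 2 times in galectin-4, galectin-8 and galectin-9. Galectin-12 held 0 copies of it. Over the 28 pairs of members the aligned residues were 25.6% to 46% identical, with a median of 32.6%. The closest pairs were galectin-1 with galectin-2 (46%) and galectin-4 with galectin-9 (45.9%).

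Promoter windows of 300 bases were given in RefSeq (GRCm38.p6) for 6 of the 8 members. They are shown for the members whose transcripts differed most between lines, Lgals7 and Lgals3, with each CpG in capitals, because the share of CpG separates these promoters. Each runs 5′ to 3′ on the strand of the gene, from 250 bases before to 50 after its start, at chr7:28864136-28864435 (plus strand) for Lgals7 and chr14:47373610-47373909 (plus strand) for Lgals3.
Lgals7: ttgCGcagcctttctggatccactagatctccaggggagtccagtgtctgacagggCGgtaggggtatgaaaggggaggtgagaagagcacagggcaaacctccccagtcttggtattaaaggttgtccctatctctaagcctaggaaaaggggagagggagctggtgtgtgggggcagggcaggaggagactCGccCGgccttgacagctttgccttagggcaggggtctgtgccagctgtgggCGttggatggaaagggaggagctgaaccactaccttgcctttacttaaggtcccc
Lgals3: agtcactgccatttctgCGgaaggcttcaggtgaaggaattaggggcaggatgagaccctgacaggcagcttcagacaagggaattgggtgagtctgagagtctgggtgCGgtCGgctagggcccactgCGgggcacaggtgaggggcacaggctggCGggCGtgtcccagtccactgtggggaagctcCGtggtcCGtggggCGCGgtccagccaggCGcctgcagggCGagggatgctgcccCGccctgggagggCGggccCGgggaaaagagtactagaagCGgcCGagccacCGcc
The Lgals7 window held 5 CpG and the Lgals3 window 18. Of 32851 RefSeq promoter windows of this length, 38% held fewer CpG than that of Lgals7 and 70.3% fewer than that of Lgals3. The windows of Lgals2, Lgals4, Lgals8 and Lgals9 held 4 to 6.

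The Lgals9 window, at chr11:78984875-78985174 (minus strand), is shown because it alone among the 6 held the letters GAAA, then NN (any bases), then GAAA, the core of the interferon response element, searched on both strands. The matches are in capitals and lie on the opposite strand.
Lgals9: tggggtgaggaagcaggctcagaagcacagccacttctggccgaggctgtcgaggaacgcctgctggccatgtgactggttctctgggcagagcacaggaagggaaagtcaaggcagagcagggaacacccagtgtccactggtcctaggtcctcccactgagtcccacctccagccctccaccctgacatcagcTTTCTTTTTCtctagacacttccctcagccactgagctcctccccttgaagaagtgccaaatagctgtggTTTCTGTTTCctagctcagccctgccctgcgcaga
It held 2 matches, which do not overlap. At least 1 match occurred in 3.44% and 2 or more in 0.225% of the 32851 windows. A match of letters is not a measured site, and the other windows only lack these letters.

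**Figure D1:**
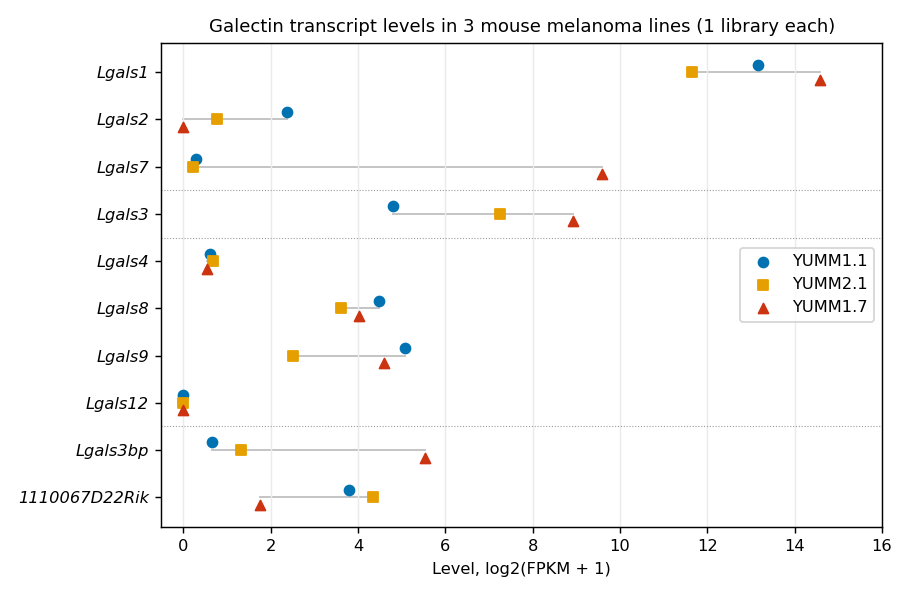
Level of each galectin as log2(FPKM + 1) (x axis) in YUMM1.1 (circles), YUMM2.1 (squares) and YUMM1.7 (triangles), 1 library each, with grey lines spanning the 3 values; dotted lines separate prototype, chimera and tandem-repeat members and the associated genes Lgals3bp and 1110067D22Rik. Lgals1 lies above 11 in every line, and Lgals7 lies near 0 in YUMM1.1 and YUMM2.1 and at 9.58 in YUMM1.7.

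Among the prototype members, Lgals1 was by far the most abundant galectin in each line. Galectin-1 forms homodimers and is known in melanoma for killing activated T cells. Its FPKM was 9139 in YUMM1.1, 3185 in YUMM2.1 and 24265 in YUMM1.7, which placed it 10th, 35th and 8th among all symbols. YUMM1.7 was thus highest and YUMM2.1 lowest, with a 7.62-fold gap between them. The difference of log2(FPKM + 1), the scale used for all differences below, was 2.93 for YUMM1.7 relative to YUMM2.1. Relative to YUMM1.1 it was 1.41 for YUMM1.7 and -1.52 for YUMM2.1. After rescaling the lines to a common FPKM sum these differences kept their direction, at 1.53, 0.60 and -0.93.

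The Lgals1 transcript is short, and the median of short abundant transcripts differed between these libraries in the same direction. Lgals1 falls in the shortest of 5 equal classes of transcript length (71 to 1668 nt), whose median difference was 0.86 for YUMM1.7 relative to YUMM2.1 and, relative to YUMM1.1, 0.50 for YUMM1.7 and -0.38 for YUMM2.1. For the 140 other genes of that class with a mean of at least 1000 FPKM, 67 of them ribosomal protein genes, the medians were 1.75, 0.98 and -0.73 in the same order. Of these 140 genes, 2 exceeded the Lgals1 difference in the first of these comparisons and 24 in the second, and 5 lay below it in the third. This set of abundant genes was chosen after the values were seen, and its part in the Lgals1 differences was not tested. Processed pseudogenes of Lgals1 are annotated, so some of its reads may have been shared.

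Lgals7 had the widest range of all members. Galectin-7 is a marker of stratified epithelia such as the epidermis and was described in human cells as a product of a p53-induced gene. Its FPKM was 0.21 in YUMM1.1, 0.165 in YUMM2.1 and 763 in YUMM1.7. YUMM1.7 alone was high. Over a transcript of at most 754 nt the low values correspond to at most about 11 fragments in each of YUMM1.1 and YUMM2.1 (exact Poisson 95% interval 5.49 to 19.7, counting error only). The ratio of YUMM2.1 to YUMM1.1 was 0.782 (95% counting interval 0.308 to 1.99), so no difference between these lines was detectable at this depth. The ratio of YUMM1.7 to YUMM1.1 was 3630 (95% counting interval 2030 to 7260) and that to YUMM2.1 was 4630 (2590 to 9290). The fragment numbers behind these intervals are upper values, so the intervals may be too narrow. Ranked from the highest difference among 11741 expressed symbols, Lgals7 was 5th in YUMM1.7 against YUMM1.1 (9.30) and 4th against YUMM2.1 (9.36).

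The epithelial markers were not listed with this pattern. Of 15 keratinocyte and epithelial marker genes, 13 were listed below 1 FPKM in every line. The summed FPKM of the 15 was 8.27 in YUMM1.1, 3.21 in YUMM2.1 and 6.62 in YUMM1.7. Of the 15, 6 were listed at 0 in YUMM1.1, 7 in YUMM2.1 and 9 in YUMM1.7. The basal keratinocyte genes Krt5, Krt14 and Trp63 were listed at 0 in YUMM1.7, as were Cdh1, Dsp and Dsg3. For these and for every gene below, a listed 0 is not read as absence, for the reason given with Lgals2. In YUMM1.7 the count below 1 FPKM thus rests mostly on values that are not read. Most of the sum came from Krt10, at 5.53, 1.99 and 4.6 FPKM in the same order, and Sfn stood at 2.6, 1.13 and 1.95 FPKM. The summed FPKM of 8 fibroblast markers was highest in YUMM1.7, at 0.722, 4.07 and 157, mostly from Col1a2 (127 FPKM in YUMM1.7). Singly they differed. Pdgfra was high in YUMM1.7 alone (0.202, 0.17 and 13.9 FPKM). Pdgfrb (0.0107, 1.88 and 13) and Col1a1 (0.455, 1.17 and 1.79) were graded over the lines. Fap and Thy1 stayed below 1 FPKM in every line. Of those 8, 5 reached 1 FPKM in YUMM1.7, 2 in YUMM2.1 and 0 in YUMM1.1, while Lum was listed at 0 in YUMM1.7. The summed FPKM of 11 melanocyte markers was lowest in YUMM1.7, at 117, 60 and 6.71. Sox10 gave 107, 44.3 and 0.00821 of it, and the other markers did not share a common order of lines. The pigment genes Tyr, Dct and Tyrp1 and the Pmel gene (listed as Si) were below 1 FPKM in every line, and Slc45a2 and Gpr143 were listed at 0 in every line. For YUMM1.7 the melanosome gene Mlana was also listed at 0, but its FPKM was 0.159 for YUMM1.1 and 6.18 for YUMM2.1. Over the lines in the order above, Mitf stood at 0.188, 1.23 and 0.617, and the neural crest factor gene Pax3 at 8.22, 7.71 and 5.68. In all, 2 of the 11 markers reached 1 FPKM in YUMM1.1, 4 in YUMM2.1 and 1 in YUMM1.7. Whether other cells contribute to a bulk value, and whether fewer cells or less RNA per cell lowers it, cannot be told apart here, and the part of these markers in the Lgals7 result was not tested.

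The genes beside Lgals7 on chromosome 7 did not follow it. Its nearest neighbor on the 5′ side, the galectin gene Lgals4, stood at 0.523, 0.598 and 0.455 FPKM in YUMM1.1, YUMM2.1 and YUMM1.7. On the other side Capn12, which encodes a calpain protease, stood at 0.0372, 0.00833 and 0.0235 FPKM. Both stayed low where Lgals7 was high. Beyond them the actin cross-linker gene Actn4 was lower in YUMM1.7 (204, 180 and 88.6 FPKM), and Ech1 (104, 86.8 and 109), the splicing factor gene Hnrnpl (111, 108 and 174) and the translation factor gene Eif3k (372, 304 and 617) differed by at most 1.02 between any of the lines. None of the 6 neighbors, 3 on each side, differed 4-fold in any comparison, where 2.58% to 8.66% of expressed symbols did.

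**Figure D2:**
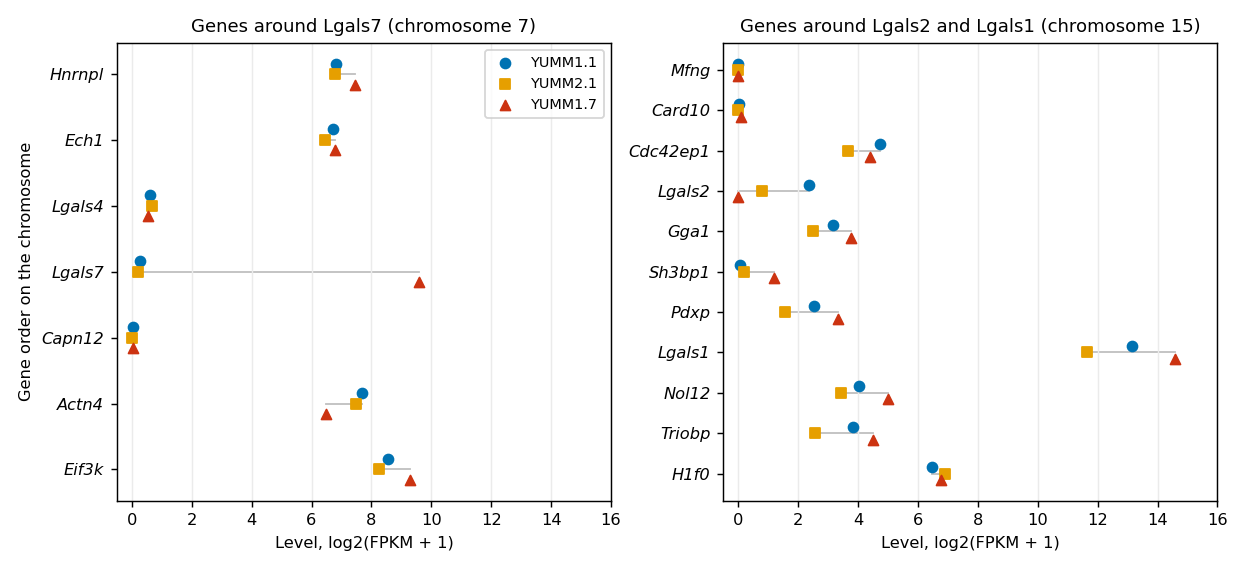
Levels as log2(FPKM + 1) (x axis) of the genes around Lgals7 (left) and around Lgals2 and Lgals1 (right), in chromosome order from top to bottom, in YUMM1.1 (circles), YUMM2.1 (squares) and YUMM1.7 (triangles). Lgals7 separates YUMM1.7 from the other lines while Lgals4 and Capn12 lie below 1 in all of them. Gga1, Pdxp, Nol12 and Triobp have the same order of lines as Lgals1, an order not counted over all genes.

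Lgals2, expressed chiefly in the gut, was low in YUMM1.1 and YUMM2.1. It was listed at 0 in YUMM1.7, with an FPKM of 4.16 for YUMM1.1 and 0.722 for YUMM2.1. An exact 0 in this table is not read as absence, because abundant ribosomal protein genes were also listed at 0 in YUMM1.7. YUMM1.1 exceeded YUMM2.1 5.75-fold. Lgals2 and Lgals1 lie near each other on chromosome 15, with Gga1, Sh3bp1 and Pdxp between them. Around Lgals1, Pdxp (4.81 FPKM in YUMM1.1, 1.96 in YUMM2.1 and 9.04 in YUMM1.7), Nol12 (15.2, 9.74 and 30.9), Triobp (13.3, 4.9 and 21.8) and Gga1 (8.01, 4.58 and 12.7) had the same order of lines as Lgals1, while H1f0 (86.8, 119 and 107) and Sh3bp1 (0.0493, 0.148 and 1.3) did not. How many of all expressed symbols had this order was not counted, and the FPKM sum of the whole table had it too (1041960, 693156 and 1827835). The differences of the 4 neighbors that shared it, between YUMM1.7 and YUMM2.1, were 1.30 to 1.95, against 2.93 for Lgals1. Of its 6 neighbors, 0 passed 4-fold. Among expressed symbols 7.01% did in YUMM1.7 against YUMM1.1, 2.58% in YUMM2.1 against YUMM1.1 and 8.66% in YUMM1.7 against YUMM2.1. These neighbors were named after their values were seen.

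The chimera member Lgals3 was graded over the 3 lines. Galectin-3 forms oligomers through its tail, binds many surface glycoproteins and is known as the macrophage antigen Mac-2. Its FPKM was 26.9 in YUMM1.1, 152 in YUMM2.1 and 487 in YUMM1.7. YUMM2.1 exceeded YUMM1.1 5.63-fold and YUMM1.7 exceeded YUMM2.1 3.22-fold, differences of 2.45 and 1.68. Among expressed symbols the difference of 4.13 for YUMM1.7 relative to YUMM1.1 ranked 108th from the highest, and that of YUMM2.1 ranked 106th. With the median of its length class taken off, the differences were 3.63 for YUMM1.7 and 2.83 for YUMM2.1 relative to YUMM1.1, and 0.82 for YUMM1.7 relative to YUMM2.1, which was 0.29 after rescaling to a common sum. The genes beside it, Mapk1ip1l (19.1, 19.6 and 20.1 FPKM) and Dlgap5 (12.7, 15.7 and 11.5), were close to level.

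Leukocyte markers were not graded in this way. Over 15 marker genes the summed FPKM was 5.59 in YUMM1.1, 33.6 in YUMM2.1 and 7.78 in YUMM1.7, of which Lyz2, a lysozyme of macrophages, gave 4.96, 25.9 and 0.048. The pan-leukocyte gene Ptprc stood at 0.00217 FPKM in YUMM2.1 and was listed at 0 in the other lines. The macrophage genes Emr1 and Tyrobp were listed at 0 in all 3. The macrophage gene Cd68 (0.362, 4.27 and 0.687 FPKM) and the leukocyte gene Cd53 (0.0215, 3.01 and 0.658) were highest in YUMM2.1, and Cd14 reached 6.21 FPKM in YUMM1.7. At least 1 FPKM was reached by 1 of the 15 in YUMM1.1, 3 in YUMM2.1 and 1 in YUMM1.7, and the part of these markers in the Lgals3 result was not tested.

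Among the tandem-repeat members, Lgals9 had its lowest value in YUMM2.1. Galectin-9 is induced by interferon in several cell types and has been reported to bind the T cell receptor Tim-3. Its FPKM was 32.8 in YUMM1.1, 4.65 in YUMM2.1 and 23.2 in YUMM1.7. YUMM2.1 was 7.07-fold below YUMM1.1 and 4.98-fold below YUMM1.7. The difference for YUMM1.7 relative to YUMM1.1 was -0.49 as deposited, -0.98 with its length class median taken off and -1.26 after rescaling to a common sum, where YUMM1.7 lay nearer to YUMM2.1. The difference between YUMM2.1 and YUMM1.1 (-2.58) ranked 67th from the lowest of 11741. That between YUMM1.7 and YUMM2.1 passed 4-fold as deposited, but was 1.24 after its length class median was taken off, 1.55 with a pseudocount of 5 and 0.83 after rescaling to a common sum. With a pseudocount of 5 the difference between YUMM2.1 and YUMM1.1 was -1.97, which is short of 4-fold. Its neighbors Nos2, listed at 0 in every line, and Ksr1 (5.15, 6.25 and 0.755 FPKM) did not have this order.

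Lgals8 had the smallest range of the expressed members as deposited. Galectin-8 detects damaged vesicles by the glycans exposed on them. Its FPKM was 21.5 in YUMM1.1, 11.3 in YUMM2.1 and 15.3 in YUMM1.7. As deposited no difference passed 2-fold, the largest being 1.91-fold between YUMM1.1 and YUMM2.1. After rescaling to a common sum the order of YUMM1.7 and YUMM2.1 turned round (from 0.42 to -0.88), and YUMM1.7 passed 2-fold below YUMM1.1 (from -0.46 to -1.21).

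The remaining members were low or not seen. Lgals4, a gene of intestinal epithelium, had 0.455 to 0.598 FPKM over the 3 lines, at most about 29 to 72 fragments. The ratio of YUMM1.7 to YUMM1.1 was 0.87, with a 95% counting interval of 0.531 to 1.4, so that no difference was detectable at this depth. Mouse Lgals6, a close copy of Lgals4, was sought but had no entry in the authors' expression table, and reads of such copies can be shared. Lgals12, known from fat cells, was listed at 0 in all lines, where 3 fragments would have given 0.0125 to 0.0238 FPKM. Of 8 adipocyte markers, Adipoq, Plin1 and Pparg stayed below 1 FPKM in every line. Cebpa was the highest (1.32, 4.57 and 3.61 FPKM), and Fabp4 stood at 0.0315, 0.986 and 2.41 FPKM.

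Counted together, 6 of the 8 galectins reached 1 FPKM in at least 1 line, the level that defined the 11741 expressed symbols. At a fixed difference of 2, or 4-fold, 2 galectins were higher (Lgals7 and Lgals3) and 1 lower (Lgals2) in YUMM1.7 relative to YUMM1.1, where 3.95% of expressed symbols were higher and 3.06% lower (7.01% in all). The Lgals2 call rests on its value listed at 0, and it was lost with a pseudocount of 5 (-0.87) and with symbols listed at 0 left out. In YUMM2.1 against YUMM1.1, 1 was higher (Lgals3) and 1 lower (Lgals9), against 1.47% and 1.11% of symbols (2.58% in all). In YUMM1.7 against YUMM2.1, 3 were higher (Lgals7, Lgals1 and Lgals9) and 0 lower, against 5.54% and 3.13% (8.66% in all). The comparisons share libraries. With all lines brought to a common FPKM sum, Lgals7 alone stayed past 4-fold in the last comparison. That scaling moved the median difference of all expressed symbols from 0.02, -0.05 and 0.02 to -0.60, 0.43 and -1.10 in the order given here, and the symbols past 4-fold from 464 higher and 359 lower to 264 and 627 in YUMM1.7 against YUMM1.1, from 173 and 130 to 344 and 87 in YUMM2.1 against YUMM1.1, and from 650 and 367 to 193 and 1595 in YUMM1.7 against YUMM2.1.

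**Figure D3:**
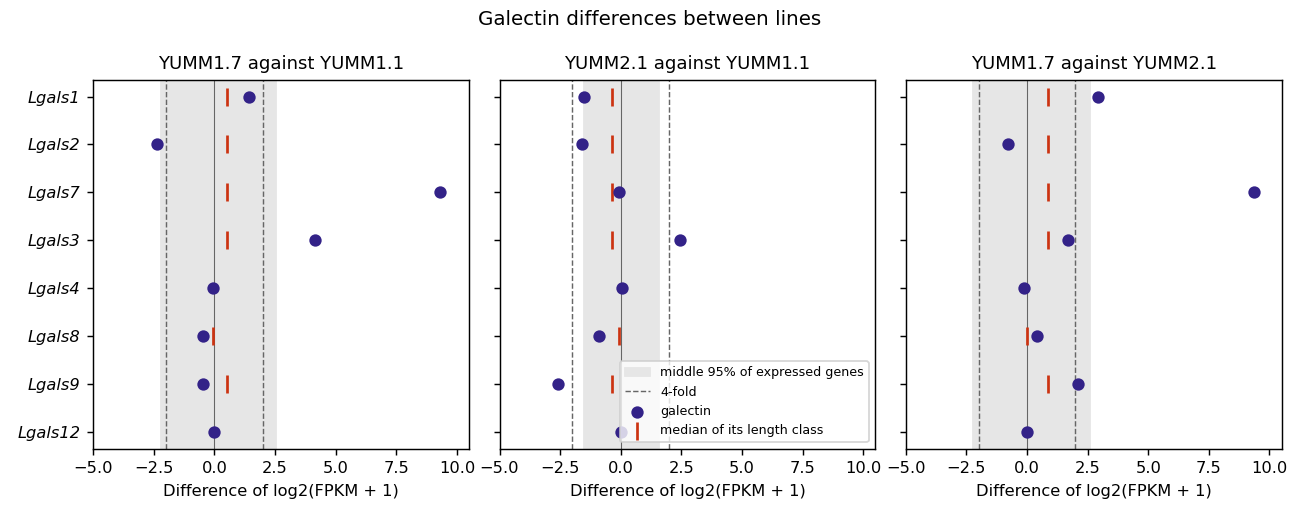
Difference of log2(FPKM + 1) for each galectin (points, x axis) in 3 comparisons, with the middle 95% of the 11741 expressed genes in grey, 4-fold differences as dashed lines and the median of each member's transcript length class as a red tick (none for Lgals4 and Lgals12, below 1 FPKM). Lgals7 lies at 9.30 and 9.36 in the panels with YUMM1.7 and at -0.06 in the other, and Lgals9 lies at -2.58 in YUMM2.1 against YUMM1.1.

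The make-up of the family differed between the lines in its minor part. Lgals1 gave 99.1% of the summed galectin FPKM in YUMM1.1 and 95% in each of YUMM2.1 and YUMM1.7. The remainder, 86.2 FPKM in YUMM1.1, 169 in YUMM2.1 and 1290 in YUMM1.7, was led by Lgals9 in YUMM1.1 (0.356% of the sum), by Lgals3 in YUMM2.1 (4.52%) and by Lgals7 in YUMM1.7 (2.99%, with Lgals3 at 1.91%). The sum over the family was 9225, 3354 and 25555 FPKM in that order, or 0.885%, 0.484% and 1.4% of all FPKM in the table. The ratio of these sums was 7.62 between YUMM1.7 and YUMM2.1 as deposited and 2.89 after rescaling to a common sum.

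Genes associated with galectins also separated YUMM1.7. Lgals3bp, which encodes a secreted glycoprotein that binds galectin-3 and galectin-1, had 0.574 FPKM in YUMM1.1, 1.52 in YUMM2.1 and 45.3 in YUMM1.7. It was 78.8-fold higher in YUMM1.7 relative to YUMM1.1 and 29.7-fold higher than in YUMM2.1. The galectin-related gene Lgalsl, listed as 1110067D22Rik, went the other way, at 12.8, 19.3 and 2.39 FPKM, 8.06-fold lower in YUMM1.7 than in YUMM2.1. Grifin, a lens galectin-like gene, was listed at 0 in all lines.

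Enzymes that build the glycans galectins bind differed between the lines gene by gene, with no common direction. Of 20 expressed genes for N-glycan branching, lactosamine and core O-glycan synthesis, 5 were at least 2-fold higher and 4 lower in YUMM1.7 relative to YUMM1.1, with a median of 0.04, where 13.5% of all symbols were higher and 9.91% lower (23.4% together). In YUMM2.1 against YUMM1.1, 1 was higher and 1 lower (6.21% and 7.64% of symbols, 13.8% together), and in YUMM1.7 against YUMM2.1, 4 and 4 (19.5% and 11.7%, 31.3% together). After rescaling to a common sum these splits were 5 and 7, 7 and 0, and 1 and 11. The median difference of all expressed symbols was then -0.60, 0.43 and -1.10, and no 2-fold share of all symbols is given for that scaling. Mgat5, whose product makes the branch that galectin-3 prefers, had 0.428 FPKM in YUMM1.1, 3.12 in YUMM2.1 and 3.72 in YUMM1.7. YUMM1.1 was thus the line low in both Mgat5 and Lgals3. The galactosyltransferase genes B4galt5 (3.84, 7.07 and 20.5 FPKM) and B4galt2 (16, 6.17 and 27.4), the mannosidase gene Man2a1 (6.5, 9.87 and 28.2) and B3gnt3 (listed at 0, then 0.0287 and 4.27) were highest in YUMM1.7. The genes C1galt1 and Gcnt1 of core O-glycan synthesis were lowest there, at 4.91 FPKM against 15.9 in YUMM1.1 and at 5.17 against 16.4.

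The next group holds genes for sialic acid and fucose caps, including core fucose (Fut8), with genes that trim caps (Neu1) or supply them (Cmas and Slc35a1). It is called the capping enzymes below, though not every member caps galactose. Within it the widest ranges were those of some sialyltransferase genes. The most abundant of these genes, St3gal4, was close to level, at 67.3 FPKM in YUMM1.1, 65.3 in YUMM2.1 and 63.9 in YUMM1.7. St3gal1 and St3gal3 ranged less than Fut8. St6gal1, whose alpha-2,6 sialic acid blocks binding of galectin-1, stood at 0.31 FPKM in YUMM1.1, 10.3 in YUMM2.1 and 3.79 in YUMM1.7. St3gal6 was listed at 0 in YUMM1.7, with 11.6 FPKM for YUMM1.1 and 0.102 for YUMM2.1. YUMM1.1 was thus the lowest line for St6gal1 and the highest for St3gal6. St3gal5, which makes the ganglioside GM3, had 20.7, 11.2 and 4.17 FPKM, St3gal2 had 20.8, 6.05 and 11.1, and the core fucosyltransferase gene Fut8 had 14.4, 17.7 and 6.83. Of 13 expressed genes in this group, 1 was at least 2-fold higher and 2 lower in YUMM1.7 relative to YUMM1.1 (median -0.46), 1 and 2 in YUMM2.1 against YUMM1.1 (median -0.16), and 0 and 3 in YUMM1.7 against YUMM2.1 (median -0.31). Over all expressed symbols the shares higher and lower were 13.5% and 9.91%, 6.21% and 7.64%, and 19.5% and 11.7%. The splits after rescaling to a common sum were 1 and 8, 2 and 2, and 0 and 9. Under that scaling the median difference of all expressed symbols was -0.60, 0.43 and -1.10, with no 2-fold share of all symbols given.

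**Figure D4:**
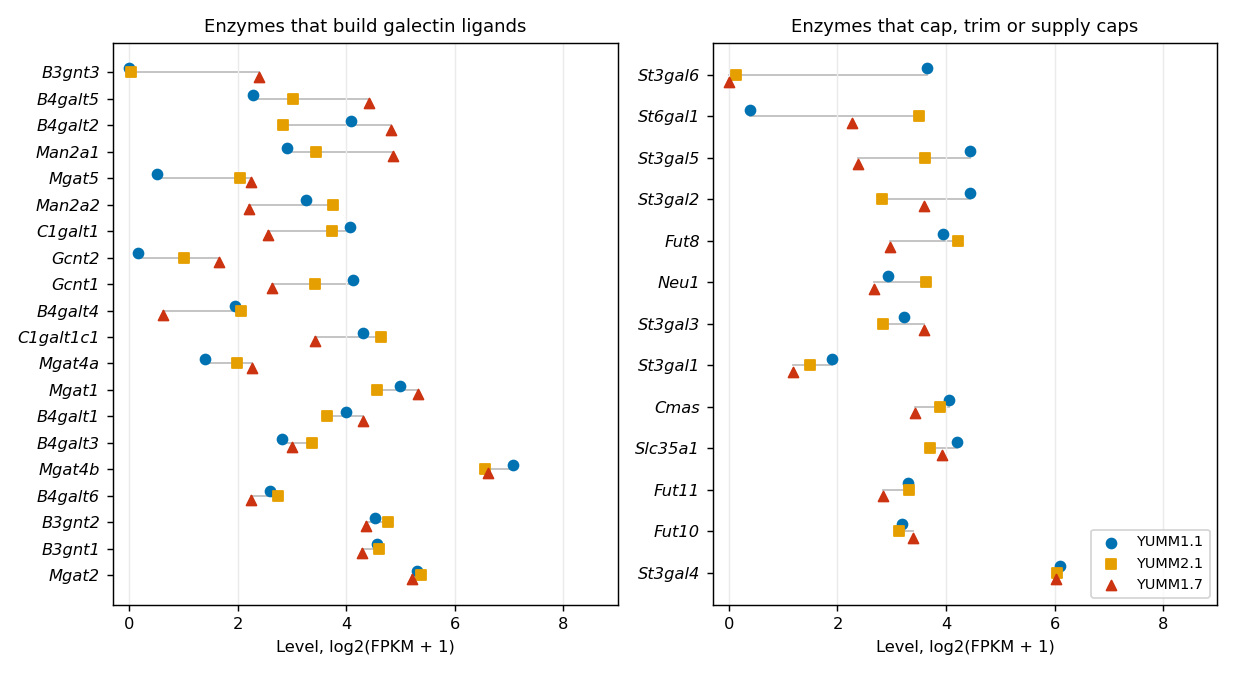
Levels as log2(FPKM + 1) (x axis) of the expressed genes that build galectin ligands (left, 20 genes) and that cap, trim or supply caps (right, 13 genes), ordered by their range, in YUMM1.1 (circles), YUMM2.1 (squares) and YUMM1.7 (triangles). Mgat5 and St6gal1 are lowest in YUMM1.1, and St3gal6 is highest there.

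Of 25 expressed genes for surface and matrix proteins that bind galectins, 8 were at least 2-fold higher and 5 lower in YUMM1.7 relative to YUMM1.1 (median -0.28), 5 and 0 in YUMM2.1 against YUMM1.1 (median 0.12), and 5 and 8 in YUMM1.7 against YUMM2.1 (median 0.06), where 23.4%, 13.8% and 31.3% of all expressed symbols passed 2-fold in either direction. After rescaling to a common sum these were 5 and 12, 9 and 0, and 2 and 15. That scaling moved the median difference of all expressed symbols to -0.60, 0.43 and -1.10. No share of all symbols past 2-fold is given for it, so these splits cannot be set apart from the shift of all symbols. Mcam, the melanoma cell adhesion molecule and a galectin-1 and galectin-3 ligand, stood at 130 FPKM in YUMM1.1, 228 in YUMM2.1 and 0.253 in YUMM1.7. The line with the most Lgals1 and Lgals3 was thus the line nearly without Mcam. Tnfrsf9, the costimulatory receptor 4-1BB that galectin-9 binds, had 0.00776, 0.0594 and 15.9 FPKM in the same order. The laminin chain gene Lama5 had 0.68, 15.9 and 25.8, and the matrix gene Thbs1 had 6.97, 56.5 and 5.58. The integrin gene Itgb1 was abundant in all lines, at 189, 124 and 81.6 FPKM, and Havcr2, which encodes Tim-3, was at most 0.23 FPKM. Inside the cell, 20 expressed partners of galectins gave, at 2-fold, 2 genes higher and 3 lower in YUMM1.7 relative to YUMM1.1. The counts were 0 and 0 in YUMM2.1 against YUMM1.1, and 4 and 1 in YUMM1.7 against YUMM2.1. As deposited, the same shares of all symbols stand beside them (23.4%, 13.8% and 31.3%). After rescaling to a common sum the counts were 0 and 8, 2 and 0, and 0 and 12, again with no 2-fold share of all symbols at that scaling. Hras, listed as Hras1, whose product galectin-1 helps to cluster at the membrane, had 88.8, 73.5 and 220 FPKM. Trim16, which acts with galectin-3 at damaged vesicles, had 1.97, 2.08 and 6.32.

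The genes with levels most like each galectin were sought among expressed symbols, leaving out predicted or unnamed genes, small RNAs and pseudogenes. They were found by Euclidean distance over log2(FPKM + 1) in the 3 lines, a description over 3 libraries. Lgals1 lay nearest to the ribosomal protein genes Rps16 (distance 0.41), Rpl34 (0.49) and Rps10 (0.54), and Rps16 stood at 7390, 3840 and 25500 FPKM. Lgals7 lay nearest to Crabp1 (1.60), Glipr1 (1.86), with Igfbp6 next (0.0512, 0.0502 and 192 FPKM). Lgals3 lay nearest to Ifitm3 (0.71), Gsto1 (0.76) and Mt1 (0.83), of which Ifitm3 stood at 39.7, 112 and 535 FPKM. The nearest genes were Cela1 (0.38), Ctxn1 (0.44) and Src (0.65) for Lgals9, Dcxr (0.18), Rala (0.21) and Zdhhc8 (0.24) for Lgals8, and Gnai1 (0.15), Rasl11b (0.19) and Col28a1 (0.20) for Lgals2.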

How the data were processed

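The 3 libraries, YUMM1.1, YUMM2.1 and YUMM1.7, were compared as values, since 1 library per line allows no test. The deposited values are FPKM per gene symbol; per the submitters' processing notes, the authors used TopHat2 2.0.9, Cufflinks and Cuffnorm. Which build, annotation and library scaling were used is not given in the sources used here. Rescaling by the median ratio gave galectin sums of 9240, 3348 and 25556 FPKM, against 9225, 3354 and 25555 as deposited, in the order of lines above. The deposited values thus stand close to that scaling, and rescaling to a common sum departs from it. Cufflinks divides by an effective length, which raises FPKM of short transcripts, so fragments derived from full length are upper values. The spacing of low FPKM values in transcripts of at least 3000 nt implied 68.8, 87.4 and 45.7 M fragments, in the order of lines above, with 75.3% to 82.6% of low values within 0.2 of a whole multiple. The implied numbers depend on the library scaling and are not measured depths. Intervals cover counting error only and, because they rest on upper fragment numbers, may be too narrow.

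Differences are of log2(FPKM + 1). Transcript lengths came from GENCODE M21 and covered 95.1% of expressed symbols; 7 list genes were matched through RefSeq synonyms. The galectins, gene lists and rules were chosen with earlier results of these data known. Named genes were all members and galectin-like genes, the 5 widest-ranging genes of each list (of which the text gives a part), the 3 nearest genes per member and the neighbors of Lgals7. C1galt1, Gcnt1, St3gal1, St3gal3, St3gal4, Itgb1, Havcr2, single marker genes and the neighbors of other members were named after their values were seen. Python 3.11.15, numpy 2.4.6, pandas 2.3.3, scipy 1.17.1, Biopython 1.88 and matplotlib 3.10.9 were used, and the fold rule and the depth step were tested on simulated data.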

Additional observations from a re-analysis of the deposited data

How the results depend on the processing

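Alternatives were pseudocounts of 0.1 and 5, no filter, a filter at 5 FPKM, rescaling (by sum, by upper quartile or by median ratio) and subtraction of the length class median. Leaving out symbols listed at 0 was added after the data were seen. No paired analysis was possible because each line had 1 library, and no library could be left out. Of 205 recomputed galectin differences, 186 stayed past 4-fold or, short of it, moved by no more than 0.5, 11 moved further without passing 4-fold, 2 came to pass it and 6 no longer did; 0 of those past 4-fold as deposited changed sign. Part of the 205 could not move, because the filters and leaving out symbols listed at 0 do not enter a gene's own difference. Rescaling by the median ratio also changed little, with Lgals1 at 1.41, -1.53 and 2.93. The count of 186 is therefore no measure of how firm the differences are. Lgals7 and Lgals3 kept their calls against YUMM1.1 throughout.

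With a pseudocount of 0.1, the galectins 4-fold lower became 2 in YUMM2.1 against YUMM1.1 and 1 in YUMM1.7 against YUMM2.1, both through Lgals2 (-2.37 and -3.04), and 12.8% (YUMM1.7 against YUMM1.1), 6.62% (YUMM2.1 against YUMM1.1) and 15.2% (YUMM1.7 against YUMM2.1) of symbols passed 4-fold. The capping enzymes past 2-fold became 5 in each comparison with YUMM1.7 and the intracellular partners 1 in YUMM2.1 against YUMM1.1. At the alternative settings, here and below, shares of all symbols are given at 4-fold only. A change in a 2-fold list count therefore cannot be told apart from the same change over all symbols. With a pseudocount of 5, the galectins 4-fold lower became 0 in both comparisons with YUMM1.1, and 2.82%, 0.86% and 4.06% of symbols passed, in the same order. The branching enzymes past 2-fold were then 4, 0 and 4, the intracellular partners 1 and 2 in the comparisons with YUMM1.7, and the capping enzymes 0 in YUMM1.7 against YUMM2.1. Without a filter 3.19%, 1.17% and 3.94% of symbols passed. With a filter at 5 FPKM the branching enzymes past 2-fold were 5 in YUMM1.7 against YUMM1.1 and 1 in YUMM2.1 against YUMM1.1.

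Under the common sum, 1 galectin was 4-fold higher in YUMM1.7 than in YUMM2.1, where 15.2% of symbols passed, and the ratios of galectin sums were 1.58, 0.547 and 2.89. Past 2-fold in either direction there were 9 capping enzymes in each comparison with YUMM1.7 and 8, 2 and 12 intracellular partners. In YUMM2.1 against YUMM1.1 there were 7 branching enzymes and 9 surface and matrix partners. This scaling also moved the median difference of all expressed symbols, to -0.60, 0.43 and -1.10. After subtraction of the length class median, the intracellular partners were 3 in YUMM1.7 against YUMM1.1 and the capping enzymes 5 in YUMM1.7 against YUMM2.1. With symbols listed at 0 left out, 0 galectins were 4-fold lower in YUMM1.7 than in YUMM1.1, since Lgals2 drops out. The cause of the other changes was not tested.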
